A study of Homo sapiens with 6 samples.

Results

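Spliceosome proteins, together with the ubiquitin-like protein UBL5 and the splicing regulator TRA2B, were followed as 252 guide RNAs (gRNAs) against 63 genes, out of 77441 gRNAs against 19364 genes in the Brunello knockout library. The members were chosen by gene symbol: the Sm proteins and proteins of the U1 and U2 small nuclear ribonucleoproteins (snRNPs), the SF3A and SF3B subunits, U2AF1 and U2AF2, the PRPF family, the LSM family, the SR proteins, TRA2A, TRA2B and UBL5. Each gene had 4 gRNAs, which share their target and are not replicates of a condition. IMR32, a MYCN-amplified neuroblastoma cell line carrying Cas9 and the library, was grown alone, in coculture with CD14-depleted lymphocytes, or in that coculture with the PD-1 antibody nivolumab at 10 µg/ml, and was harvested on day 5. There were 2 libraries per condition, numbered 1 and 2, and each number stands for 1 screen with the lymphocytes of 1 donor, so that donor and screen cannot be told apart. All 6 libraries thus came from Cas9-expressing, library-transduced IMR32 cells, and the 4 coculture libraries held the same kind of lymphocytes. The 2 screens also differed in the ratio of lymphocytes to tumour cells, one high and one low, and which number had which was not given in the labels, so donor and ratio cannot be told apart either. gRNA reads hold no RNA levels, so the cell line could not be checked against its marker genes.

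Introns are removed from pre-mRNA by the spliceosome, which is built from small nuclear RNAs, each wrapped in a ring of Sm or LSM proteins, and from many further proteins that recognise the splice sites, hold the catalytic core and drive its rearrangements. SR proteins and the related TRA2 proteins bind exons and decide which of them are included. The machinery is used by every dividing cell, and a Cas9 cut in an essential gene of it is known to remove cells from a growing pool. In such a screen the abundance of a gRNA reports the share of cells that carry it. Cells carrying a gRNA are called knockouts below, although the cut itself was not measured.

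Reads, inferred from the steps of the deposited scaled values, numbered 58554842 (coculture 2) to 79924251 (coculture 1) in the 6 libraries. The median member gRNA had 437.5 to 637 reads per library, against 831 to 1147 for the median gRNA of the 374 olfactory receptor genes, a family IMR32 cells have no known need for, and 3 to 7 of the 252 member gRNAs had under 100 reads. SNRPD1_4 in coculture 2 was the 1 case of a member gRNA with 0 reads. Differences between any 2 libraries were larger than read sampling allows, at 7.49 to 14.6 times the variance of counting alone over all gRNAs. Libraries with the same number were more alike (correlation of log2 values over gRNAs 0.961 to 0.966) than libraries with different numbers (0.939 to 0.943).

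The first question was how abundant the knockouts were in IMR32 cells grown alone. Abundance is given here as the log2 of the normalised reads of a gRNA relative to the median olfactory receptor gRNA of the same library, with the median over 4 gRNAs as the value of a gene. The starting pool was not analysed here, so a low abundance holds both loss during growth and a low share in the library as it was delivered. Knockouts of spliceosome genes were scarce: the median of the 63 genes lay at -0.88 and -0.98 in the 2 libraries of IMR32 alone, a mean of -0.93, or 52.5% of the olfactory receptor level. Over all 19364 genes the median was -0.21, and over the olfactory receptor genes it was -0.01. In both libraries of IMR32 alone, 26 of the 63 genes (41.3%) were at or below 50% of the olfactory receptor level, against 5.98% of all genes and 2.41% of the olfactory receptor genes. By gRNA, 95 of 252 (37.7%) were at or below that level in both libraries, against 13.4% of all gRNAs and 6.82% of those against olfactory receptors. Relative to the median of all gRNAs instead, 16 of the 63 genes and 596 of all genes were as low. No test was made of these shares, since the members were chosen with earlier results in view. At the limit, LSM6, SF3B6 and SF3A1 were just inside, with -1.02, -1.02 and -1.0 in their higher library, and SF3B1, LSM12 and SNRPA1 just outside, with -0.94, -0.88 and -0.88.

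Low abundance was spread over gRNAs. Of the 63 genes, 18 had no gRNA at or below 50%, 12 had 1, 18 had 2, 13 had 3 and 2 had all 4, the last being PRPF8 and SRSF3. In the same order the counts were 11785, 5407, 1641, 449 and 82 over all 19364 genes. Over the 374 olfactory receptor genes they were 289, 71, 11, 3 and 0. The spread of the 4 gRNAs within a gene had a median SD of 0.549 on the log2 scale, close to the 0.559 over all genes. Across the 63 genes the abundance in library 1 and in library 2 of IMR32 alone had a correlation of 0.959, a description across genes that are not independent, and the 2 libraries differed by 0.198 on average. This is the error against which the order of the genes has to be read. A gene's range over all 6 libraries had a median of 0.38 and went from 0.11 to 0.80. In all 6 libraries 19 of the genes were at or below 50%, and 29 were above it in all 6. The same counts over all genes were not made here.

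Among the Sm proteins, which form the ring around the U1, U2, U4 and U5 RNAs, 5 of 8 were low in both libraries of IMR32 alone, with a median of -1.18 (44% of the olfactory receptor level). SNRPD1 (chr18:21612314-21633524, plus strand) was the lowest of them. Its abundance was -2.24 and -2.33 in IMR32 alone, -2.32 and -2.40 in coculture and -2.07 and -2.28 with nivolumab, so all 6 libraries lay close together, and the mean in IMR32 alone was 20.5% of the olfactory receptor level. The median hid a wide spread of gRNAs: SNRPD1_2 had 807 and 677 reads in IMR32 alone, SNRPD1_1 187 and 199, SNRPD1_3 189 and 183, and SNRPD1_4 18 and 20. SNRPF, SNRPG, SNRPD2 and SNRPD3 followed at 34.0%, 37.2%, 42.7% and 45.3%, and SNRPE lay at 64.3%. From SNRPF to SNRPD3, neighbours in this order were apart by no more than about the mean difference between the 2 libraries.

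The pair SNRPB and SNRPN stood far apart. SNRPB encodes the Sm B proteins used in most cells, and SNRPN encodes SmN, a close relative made mainly in brain and able to take the same place in the ring. SNRPB lay at -1.40 and -0.83 in IMR32 alone, -1.34 and -1.64 in coculture and -1.26 and -1.04 with nivolumab, whereas SNRPN lay at 0.53 and 0.76, 0.64 and 0.76, and 0.56 and 0.70. The 2 genes did not overlap in any library, and whether a gRNA of either gene also matches the other was not analysed here. In IMR32 alone the mean was -1.12 ± 0.40 (SD, n = 2), or 46.1%, for SNRPB and 0.65 ± 0.16 (SD, n = 2), or 156%, for SNRPN. SNRPB_1 did not share the low level of the other gRNAs of its gene, with 1104 and 1097 reads in IMR32 alone against 225 to 676 for SNRPB_2, SNRPB_3 and SNRPB_4. From the lowest, SNRPN ranked 19229 of 19364 genes, and the U2 snRNP protein SNRPB2 ranked 19279 at 162%. The other proteins of the U1 and U2 snRNPs were SNRPA (78.9%) and SNRPC (80.1%) of U1, and SNRPA1 of U2 (48.8%). None of the 4 was low in both libraries, and 2 of their 16 gRNAs were.

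LSM proteins belong to several particles. LSM2 to LSM8 form the ring on the U6 RNA, and 6 of these 7 genes were low, with a median of -1.36 (39.0%) and 16 low gRNAs of 28. LSM7 was the lowest, at -1.75 and -2.14 in IMR32 alone, -1.60 and -2.07 in coculture and -1.57 and -1.82 with nivolumab. It was always lower in the screen numbered 2, as was the median of the members, and LSM4 was the highest at 61.4%. Of the 6 LSM proteins outside that ring, LSM10 was low (39.2%), the others were not, and their median was -0.14 (90.5%). LSM10 and LSM11 belong to the U7 particle, which trims histone mRNA, and LSM11 lay at 81.3%. LSM1, which replaces LSM8 in the cytoplasmic ring that promotes mRNA decapping, lay at 143%, and LSM14A and LSM14B, proteins of cytoplasmic mRNA granules, at 120% and 101%. LSM12 lay at 52.8%.

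The SF3A and SF3B complexes hold the U2 snRNP on the branch point. Of their 9 subunits 5 were low, with a median of -1.10 (46.8%). SF3B4 was the lowest at 28.5%, with -1.83 and -1.79 in IMR32 alone, -1.61 and -1.70 in coculture and -1.69 and -1.76 with nivolumab. SF3B5 lay at 37.5%, SF3B1, the largest subunit and the target of several splicing inhibitors, at 44.6%, and SF3A2 was the highest at 76.6%. U2AF1 and U2AF2 bind the end of the intron, its AG and its pyrimidine tract. They lay at -1.35 ± 0.06 and -1.01 ± 0.25 (SD, n = 2 libraries each).

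The PRPF family holds proteins of several particles, and 4 of its 13 genes were low, with a median of -0.84 (55.8%). PRPF8 (chr17:1650629-1684867, minus strand), the scaffold of the catalytic core, was the lowest gene of all 63 and ranked 6 from the lowest of 19364 genes. Its abundance was -2.66 and -3.01 in IMR32 alone, -2.55 and -3.18 in coculture and -2.65 and -3.02 with nivolumab, with a mean in IMR32 alone of -2.84 ± 0.25 (SD, n = 2), or 14.0%. In IMR32 alone PRPF8_1 had 325 and 342 reads, PRPF8_2 141 and 83, PRPF8_3 34 and 58 and PRPF8_4 139 and 170, so all 4 were low. PRPF38B and PRPF38A, a pair of related genes, were next at 24.8% and 27.9%, and PRPF19, a ubiquitin ligase of the spliceosome, lay at 47.2%. PRPF6, PRPF31, PRPF4 and PRPF3 of the U4/U6.U5 particle were between 54.3% and 63.9%. PRPF18, a factor of the second step of splicing, was at 101%.

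Among the SR proteins 3 of 11 were low, SRSF3, SRSF7 and SRSF2, at 25.7%, 27.6% and 33.9%, with a median over the 11 of -0.62 (64.9%). SRSF3 lay at -1.73 and -2.19 in IMR32 alone, -1.79 and -2.23 in coculture and -1.66 and -2.27 with nivolumab. It was always lower in the screen numbered 2, as were PRPF8 and the median of the members, and all 4 SRSF3 gRNAs were low. SRSF1 lay at 48.2%, but above the limit in 1 library, and SRSF5 was the highest at 115%. TRA2B (chr3:185914558-185938103, minus strand) and its paralogue TRA2A bind GA-rich exon sequences. TRA2B lay at -0.81 and -0.98 in IMR32 alone and TRA2A at -0.51 and -0.36, which is 53.8% and 73.9%, and the 2 genes did not overlap there. UBL5 (chr19:9827892-9830115, plus strand) is a ubiquitin-like protein that binds spliceosome proteins without being attached to them as ubiquitin is. It was low in all 6 libraries, with -1.12 and -1.47 in IMR32 alone, a mean of -1.29 ± 0.25 (SD, n = 2), or 40.9%.

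A list of 50 other splicing factors from textbook knowledge, 200 gRNAs in all, had about the same level. Its median in IMR32 alone was -1.04 (48.8%), and 21 of the 50 (42.0%) were low, against 5.98% of all genes. All 50 lay below the olfactory receptor median in both libraries. So did 63.6% of all genes, 41.2% of the olfactory receptor genes and 87.3% of the members. PLRG1, a partner of PRPF19, was the lowest with -1.56 and -2.03. SART1, a protein that UBL5 binds, lay at -0.17 and -0.14.

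The next question was whether lymphocytes changed the abundance of these knockouts. Changes are given as a gene score, the median over the 4 gRNAs of the log2 ratio between 2 libraries of the same number, and a gene was counted where it lay beyond the mean of all 19364 scores by 2 SD in both screens. The study used such a limit for depleted genes only, on its own scores and after leaving out mitochondrial and ribosomal genes, and the upper limit was added here. Coculture against IMR32 alone moved the 63 genes little as a group, with a median score of -0.02 in each screen. None of the 63 was below the cut-off in both screens, against 0.0826% of all genes, and none was above it in both, against 0.124%. In screens 1 and 2, 5 and 4 genes were below, against 2.51% and 2.44% of all genes, and 1 and 7 above, against 2.22% and 2.36%. LSM7, LSM3, SRSF2, SNRPF and U2AF2 were below in screen 1, and U2AF2 and SNRPF were above in screen 2. SNRPB, PRPF38B, U2AF1 and SRSF7 were below in screen 2. UBL5 scored -0.13 and 0.44, TRA2B 0.06 and 0.44 and SNRPF -0.24 and 0.43, so that all 3 were above the cut-off in screen 2 and not in screen 1. These 3 were also the members below the cut-off for nivolumab against coculture in both screens. A high coculture value raises the score here and lowers the nivolumab score, so the scores of these 3 genes are no independent result. Scores of both screens had the same sign in 31 of the 63 genes (49.2%), against 50% of all genes, and across the 63 genes their correlation was -0.07.

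A limma fit over all 19364 genes and 6 libraries, with the screen as a block, called 1 gene between coculture and IMR32 alone after Benjamini-Hochberg adjustment at 0.05, which is 0.00516% of those tested and none of the 63. That gene was TRO, at 0.38 (SE 0.07, adjusted p = 0.0156), and it was not called without coculture 2, without either library of IMR32 alone, without the replicate block, with the mean over gRNAs or without a trend of the variance on abundance. With the mean over gRNAs 1 other gene was called higher, and without the trend 1 other gene lower. Without adjustment 5 of the 63 genes had a p under 0.05, 3 higher and 2 lower in coculture, against 5.31% of all genes. TRA2B and UBL5 were among the 3 higher genes. The study picked both by a ratio to coculture, a choice that favours a high coculture value. TRA2B had the smallest p of the 63 in this comparison, with a log2 difference of 0.32 (SE 0.09, adjusted p = 0.751). Its 2 coculture values of -0.55 and -0.48 were above both values of IMR32 alone, an order not counted over all genes. The TRA2B score in screen 1 was nevertheless small. In screen 2 its 4 gRNAs had 562, 356, 479 and 498 reads in IMR32 alone and 605, 413, 633 and 587 in coculture, the library with the fewest reads.

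The main comparison was coculture with nivolumab against coculture without it, in which PD-1 on the lymphocytes was blocked. The study named UBL5 and TRA2B from this comparison, so their values here are a description and support nothing. It also required every gRNA of a gene to go down in its high-ratio screen. Agreement among the gRNAs of UBL5 and of TRA2B in that screen was therefore part of how they were chosen. Here every gRNA of both genes was below 0 in screen 2 but not in screen 1. By the study's rule screen 2 would be the high-ratio screen, and the agreement in it is no finding. As a group the 63 genes did not shift, with median scores of -0.02 and 0.02 in the 2 screens. The cut-offs lay at -0.21 and 0.23 in screen 1 and at -0.24 and 0.23 in screen 2. In screen 1, 7 of the 63 genes were below, against 2.45% of all genes, and 5 above, against 2.44%. In screen 2, 6 were below, against 2.52%, and 5 above, against 2.44%. Below the cut-off in both screens were UBL5, TRA2B and SNRPF, 3 of 63 (4.76%) against 0.134% of all genes, or 26 genes. UBL5 and TRA2B were among the members because the study had picked them from these screens, and of the 61 others 1 (1.64%) was below in both. Above it in both was SNRPD1, 1 of 63 (1.59%) against 0.062%, or 12 genes. SNRPF and SNRPD1, on opposite sides, both encode proteins of the Sm ring. With the mean over gRNAs in place of the median, 0 members were below and 0 above in both screens, while the mean scores were -0.33 for UBL5, -0.23 for TRA2B and -0.19 for SNRPF.

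PRPF4B, U2AF1, SNRPN and SRSF11 were below in screen 1 and not in screen 2, and SF3A2, SRSF3 and LSM6 were below in screen 2 and not in screen 1. LSM2, SF3B3, PRPF38A and LSM3 were above in screen 1, and SNRPB, LSM7, LSM5 and PRPF38B in screen 2. Scores had the same sign in both screens in 29 of the 63 genes (46.0%), against 49.4% of all genes, and across the 63 genes the correlation between screens was 0.20 (Spearman's rho 0.09), and 0.10 without UBL5 and TRA2B, against -0.01 over all genes. The scores of the 63 genes spread more widely than those of all genes, with an SD of 0.136 against 0.109 in screen 1 and of 0.173 against 0.118 in screen 2. Abundance moved with this spread. Among the 30 members at or below 50% of the olfactory receptor level on average over the 6 libraries the SD was 0.159 and 0.213, and among the other 33 it was 0.112 and 0.122. Over all genes the 1546 as low as this had an SD of 0.150 and 0.170, and 7.31% and 8.67% of them were below the cut-off in screens 1 and 2, with 7.12% and 7.76% above. The part of abundance in the counts of the 63 genes was not tested.

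UBL5 scored -0.27 and -0.42, a mean of -0.34 ± 0.10 (SD, n = 2), ranking 138 and 23 from the lowest of 19364. Its abundance was -1.22 and -1.07 in coculture, -1.49 and -1.44 with nivolumab, and -1.12 and -1.47 in IMR32 alone. Both nivolumab values were below both coculture values, an order not counted over all genes. The values of IMR32 alone spanned nearly the whole range. The 4 gRNAs did not move alike: in screen 1 their log2 ratios were 0.60, 0.12, -0.66 and -0.91, and in screen 2 they were -0.53, -0.79, -0.19 and -0.31. UBL5_1 had 435 reads in coculture 1 and 633 with nivolumab, then 458 and 382 in screen 2, so it changed sign between screens. UBL5_3 had 889 and 536 reads in screen 1 and 431 and 454 in screen 2, and UBL5_4 had 558 and 283 reads, then 363 and 353. These reads are not scaled for depth, which was 58554842 in coculture 2 and 70146695 with nivolumab in screen 2. The log2 ratios are scaled, and in screen 2 they were below 0 for all 4 gRNAs, which the study required of its high-ratio screen. The scores of nivolumab against coculture and of coculture against IMR32 alone share the coculture libraries. With nivolumab against IMR32 alone, UBL5 scored -0.05 and -0.15, within the cut-offs.

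TRA2B scored -0.22 and -0.25, a mean of -0.24 ± 0.02 (SD, n = 2), ranking 382 and 411. Its abundance was -0.55 and -0.48 in coculture and -0.77 and -0.68 with nivolumab, and -0.81 and -0.98 in IMR32 alone, so the nivolumab values lay between those of the other conditions. Here the gRNAs were more alike than those of UBL5, with log2 ratios of -0.36, 0.13, -0.08 and -0.42 in screen 1 and -0.27, -0.48, -0.24 and -0.09 in screen 2, below 0 in 3 and 4 of the 4. TRA2A, its paralogue, scored 0.18 and 0.02. Against IMR32 alone TRA2B with nivolumab scored 0.04 and 0.21.

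SNRPF (chr12:95858952-95903828, plus strand), a protein of the Sm ring, scored -0.22 and -0.35, a mean of -0.28 ± 0.09 (SD, n = 2), ranking 391 and 72. Its abundance was -1.57 and -1.49 in coculture, -1.76 and -1.61 with nivolumab and -1.33 and -1.78 in IMR32 alone. The gRNAs differed in direction, and did so in the same way in each screen, with SNRPF_1 at 0.38 and 0.43, SNRPF_2 at -0.66 and -0.53, SNRPF_3 at -0.13 and -0.16 and SNRPF_4 at -0.31 and -0.57. SNRPF_1 counted 427 and 532 reads in screen 1 and 227 and 369 in screen 2, and SNRPF_2 564 and 342, then 656 and 544. SNRPD1 scored 0.26 and 0.27, but depends on a gRNA with few reads: SNRPD1_4 had 14 reads and 0 reads in coculture and 21 and 23 with nivolumab, and without gRNAs of under 50 normalised reads no member was above the cut-off in both screens.

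In the limma fit no gene was called between nivolumab and coculture (0% of 19364), none of the 63 among them. Without adjustment 3 of the 63 had a p under 0.05, all lower with nivolumab, against 4.6% of all genes. They were SF3A2 at -0.27 (SE 0.08), UBL5 at -0.34 (SE 0.11) and TRA2B at -0.25 (SE 0.09), each with an adjusted p of 0.997. SNRPF at -0.25 (SE 0.13) and SNRPD1 at 0.20 (SE 0.15) were closer to their error. With 2 libraries in each condition an exact permutation test of a single gene that ignores the pairing by number cannot give a p below 0.333. Permuting within the numbered pairs leaves fewer arrangements.

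Nivolumab coculture against IMR32 alone gave no member beyond the cut-off in both screens, below (against 0.0878% of all genes) or above (against 0.0981%). The median score of the 63 genes was 0.00 and 0.01. Below in screen 1 were SNRPF, U2AF2, LSM4, SRSF4, SRSF9 and PRPF8, against 2.64% of all genes, and below in screen 2 was SF3A2 alone, against 2.34%. LSM5 and SF3B6 were above in screen 1, against 2.22% of all genes, and SRSF1, SF3B5, SNRPG, SF3B4 and LSM7 in screen 2, against 2.36%. The limma fit called no gene (0%), and 4 of the 63 had an unadjusted p under 0.05, all lower, against 5.36% of all genes. SF3A2 was the first of these at -0.27 (SE 0.08, adjusted p = 0.71). Its abundance was -0.43 and -0.34 in IMR32 alone, -0.51 and -0.33 in coculture and -0.62 and -0.72 with nivolumab, so both nivolumab values were below all 4 others. How many genes had such an order was not counted. SRSF4, LSM1 and SRSF9 followed at -0.24, -0.16 and -0.18.

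Of the 50 other splicing factors none was beyond the cut-off in both screens in any of the 3 comparisons. Each side there held 0.062% to 0.134% of all genes. In screens 1 and 2 of nivolumab against coculture, 6 and 4 of the 50 were below, against 2.45% and 2.52% of all genes. Above were 5 and 1, against 2.44% in each screen. The limma fit called none of the 50 in any of the 3 comparisons. Without adjustment 2 were higher and none lower in coculture against IMR32 alone, where 5.31% of all genes had a p under 0.05. With nivolumab against coculture 1 was higher and 1 lower, against 4.6% of all genes. With nivolumab against IMR32 alone 1 was higher and 2 lower, against 5.36% of all genes.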

How the data were processed

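gRNA reads were measured in 6 libraries. Per the labels, MAGeCK was among the authors' tools, its version not given in the sources used here. The deposited values are a signal: reads per gRNA that the authors scaled to the same total in every library. Each value was a whole multiple of the worth of 1 read, from which reads and depth were inferred. Too few values are low to check that these are the original reads, so no count test was run and they are given as a description. How unique molecular identifiers were collapsed, and the genome build, were not given in the sources used here. Positions were taken from GENCODE 44. gRNA sequences were not used here.

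Values were taken as log2(value + 1), minus the median of 1496 olfactory receptor gRNAs per library, and summarised per gene by the median over gRNAs, with no filter on low values. Scores beyond the mean by 2 SD in both screens were counted on either side over all genes. The study's limit was on the lower side of MAGeCK scores. limma 3.58.1 (R 4.3.3, trend, Benjamini-Hochberg) was fitted to each gene's median of gRNA values centred over the 6 libraries, with the replicate number as a block. Numbers pair libraries because each marks 1 screen and donor. Same-numbered libraries also deviated together (correlations 0.394, 0.401 and 0.402). Where libraries share cells or lymphocytes, p-values measure only the spread between these samples. The limma script was tested on simulated data. Summaries were computed with pandas 2.3.3 (numpy 2.4.6) under Python 3.11.15. Alternatives changed the reference, pseudocount, gRNA summary, filter, cut-off, block and libraries used.

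Genes named by rule were UBL5, TRA2A, TRA2B, U2AF1, U2AF2 and the Sm core, the lowest and highest gene of each role group, genes beyond the cut-off in both screens, and the 3 lowest and 3 highest by mean score in each comparison. Others were named after their values were seen. The members and lists were chosen with earlier results of these data known. PCR reads are not independent molecules, and counting errors cover sampling of reads only.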

Additional observations from a re-analysis of the deposited data

How the results depend on the processing

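Of the counts and medians over the 63 genes and the counts of calls, 102 values stayed close to those reported and 40 moved, and of the values for UBL5, TRA2B and SNRPF 23 stayed and 1 moved (SNRPF at -0.19 with the mean over gRNAs, nivolumab against coculture). Relative to all gRNAs, 16 members were low and their median was -0.71, and by the second lowest gRNA of each gene it was -1.11. With reads summed per gene, an alternative chosen after seeing the data, the median ratios were 0.0199 for coculture against IMR32 alone (in place of -0.0152), -0.0347 for nivolumab against coculture and -0.0149 for nivolumab against IMR32 alone. Members above the cut-off in both screens for nivolumab against coculture were 0 at pseudocount 50, with the mean over gRNAs, without gRNAs under 50 normalised reads, with summed reads and at 3 SD. Members below it were 0 with the mean over gRNAs and at 3 SD, and 2 (TRA2B and UBL5) at pseudocount 50 and with summed reads. In a single screen, 4 to 5 members were below and 1 to 7 above for coculture against IMR32 alone, 6 to 7 below and 5 above for nivolumab against coculture, and 1 to 6 below and 2 to 5 above for nivolumab against IMR32 alone, where each side and screen held 2.22% to 2.64% of all genes. There the median ratios were -0.0222 to -0.0152 for coculture against IMR32 alone and 0.000904 to 0.0122 for nivolumab against IMR32 alone.

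Without the replicate block limma called 0 genes between coculture and IMR32 alone, in place of 1, and 0 in the other comparisons, and 193, 151 and 205 genes had an unadjusted p under 0.05, against 1029, 890 and 1038 with it. Leaving out 1 library, limma called 0 to 3 genes for coculture against IMR32 alone (0 without coculture 2 or either library of IMR32 alone, 3 without coculture 1 and 2 without nivolumab 2), 0 to 2 for nivolumab against coculture (2 without coculture 1 and 1 without IMR32 alone 1) and 0 to 1 for nivolumab against IMR32 alone (1 without either nivolumab library or either library of IMR32 alone). A lone library was then assumed to vary like the other groups. Each gRNA fitted by itself, also chosen after seeing the data, gave 1 call for coculture against IMR32 alone and 1 for nivolumab against IMR32 alone. Both calls were the gRNA H2AFY_4, at 4.22 and 3.17. No member was called in any of these fits. The gene called for coculture against IMR32 alone was another one with the mean over gRNAs (H2AFY, at 1.15) and without the trend (there lower, not higher). A count test on reads was planned and not run, since too few values are low to check that the inferred reads are the original ones. The cause of each move was not tested.

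Low reads limit the scarcest knockouts: SNRPD1_4 had 0 to 23 reads and PRPF8_3 21 to 72, so changes of these gRNAs have large counting errors. With 2 libraries per condition, the fit had 2 residual degrees of freedom for each gene. Its variances were drawn towards the trend over all genes with 88.0 prior degrees of freedom. The SEs and p-values therefore rest mostly on the spread of other genes.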
